A study of Arabidopsis thaliana with 6 samples.

Results

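A set of 51 class III peroxidase genes of Arabidopsis thaliana was followed here. They were read by their gene identifiers from a count table of 24267 genes. The set is called the family below, although 22 further class III peroxidases lie outside it and are listed only for comparison. All 51 had a row in the table, and 48 reached a mean of at least 0.5 CPM (counts scaled to library size) over the 6 libraries and were tested. The annotation calls 49 of them peroxidases, and the other 2 carry the names root hair specific 18 and 19 (RHS18 and RHS19). RNA of wild-type seedlings of the Col accession was sequenced in 2 libraries for each of 3 groups. At 4 days of age, seedlings had been moved to fresh Murashige and Skoog plates holding either 1 nM of the auxin indole-3-acetic acid (IAA) or 10 nM melatonin (MT, an indole that plants make from tryptophan), and were sampled at 72 h. The control was ethanol at 0.1%, the solvent of both compounds, although the sample titles also call this group untreated. The doses of IAA and MT were not matched.

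Class III peroxidases are secreted haem enzymes. With hydrogen peroxide they oxidise phenolic compounds, join monolignols into lignin and cross-link wall proteins, which stiffens the cell wall. They can also produce reactive oxygen species that loosen walls, and they can oxidise IAA itself. In roots they act in growing root hairs, in the lignin ring of the endodermis called the Casparian strip, and in the oxidative burst of defence, where RBOH oxidases supply superoxide. Melatonin is known as a scavenger of such oxygen species.

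Seedlings are the material named by the labels, but rosette leaves are named in the design text. All 6 root hair and all 6 endodermis marker genes listed were detected in every library, as were the 5 root and 5 leaf markers. The peroxidases are read here as transcripts of the material as labelled, in which fewer cells of a type and less RNA per cell cannot be told apart. Library totals lay between 35953236 and 46076624 counts. Nothing states whether the paired libraries are separate cultures, so p-values cover only the spread between these libraries, which may be technical.

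The family took between 0.428% and 0.639% of all counts in a library, and its members differed widely in level. Levels between genes are compared as mean CPM per kb of coding length, which ran only from 933 to 1119 nucleotides in the TAIR10.1 gene models. PRXR1 (AT4G21960) was the highest, at 1765 CPM per kb. AT3G32980 followed at 672, PRXCB (AT3G49120, an apoplastic peroxidase of the defence burst) at 459, and AT2G38380 at 240 CPM per kb. Of the family's counts, PRXR1 alone made up 27.2% and 32.3% in the controls, 22.6% and 30.8% with IAA, and 40.7% and 39.1% with MT. Its share was thus higher in both MT libraries than in any other library.

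**Figure D1:**
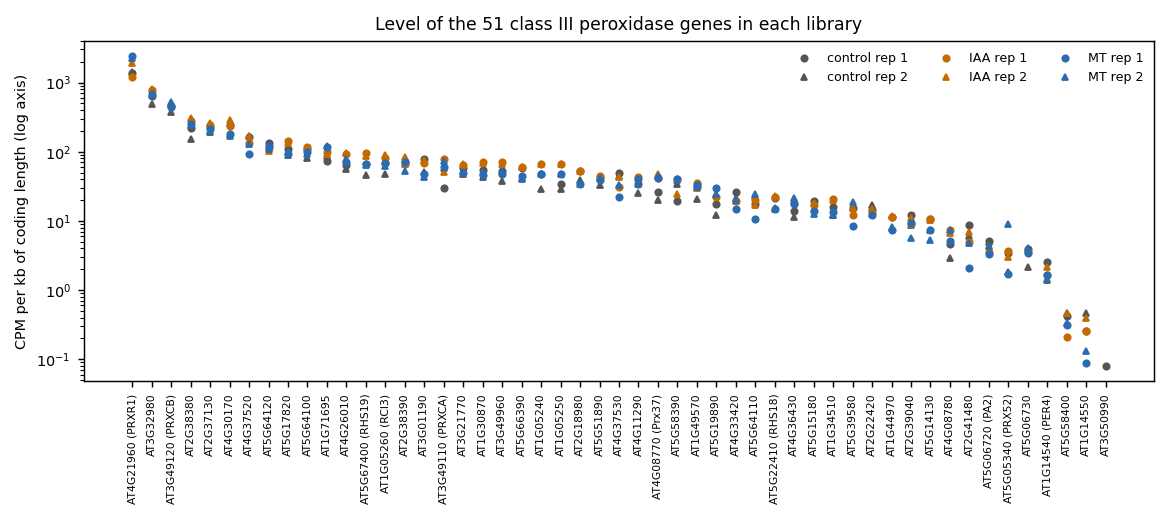
Level of the 51 class III peroxidase genes in each library, as CPM per kb of coding length on a log axis; circles are replicate 1 and triangles replicate 2 of control (grey), IAA (orange) and MT (blue), and a library at 0 is not drawn. PRXR1 stands highest and AT3G50990, with counts in a single library, lowest; for most genes the 6 libraries lie close together against the range of the family.

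The lowest levels belonged to 3 members that were not tested. AT5G58400 had a mean of 0.363 CPM and AT1G14550 of 0.258 CPM. PER36 (AT3G50990) had counts only in control replicate 1, at 0.0839 CPM, and was at 0 in the other 5 libraries. The member nearest to the cutoff on its upper side was PER4 (AT1G14540), with a mean of 1.72 CPM, so a gap separated the tested genes from the others.

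Of the 51 members, 19 have site notes that name root and use neither the word leaf nor shoot. Some of these 19 also name stem, flower, fruit or seed, so they are not all limited to the root. A further 6 name root with leaf or shoot, 19 give only a number of structures, 2 name other sites, and 5 carry no site. Of all members, 20 lie next to another member in the genome, and their sequence likeness bears on what their counts mean. The coding sequences of AT1G05240 and its neighbour AT1G05250 (synonym PRX2) are the same at all 978 positions in the TAIR10.1 gene models. Reads from coding sequence can therefore not be assigned to one of them. Next in likeness come Prx37 (AT4G08770) and AT4G08780, with 93.8% identity and 65 different positions. AT4G37520 and AT4G37530 have 92.4% identity, PRXCA (AT3G49110, synonym PRX33) and PRXCB have 90.7%, and AT2G38380 and AT2G38390 have 90.6%. The other neighbouring members differ more, with identities from 57.7% to 86.3%.

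The deposited counts of the identical pair were nearly equal in 5 of the 6 libraries. They were 1071 for AT1G05240 and 1061 for AT1G05250 in control replicate 2. With IAA they were 2908 and 2912 in replicate 1, and 3040 and 3042 in replicate 2. With MT they were 1651 and 1666, then 1828 and 1834. AT1G05240 took 49.8% to 50.2% of the pair's counts in these 5 libraries. Control replicate 1 stood apart, with 1683 counts against 1208, a share of 58.2% for AT1G05240 (exact 95% binomial interval 56.4% to 60.0%, counting error only). The sources used here do not say how reads that fit more than 1 place were counted, so both genes are reported below as uncertain, singly and as a sum. AT1G05240 is counted with the root hair peroxidases and AT1G05250 with the members of no role list, so the identical genes enter different groups.

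**Figure D2:**
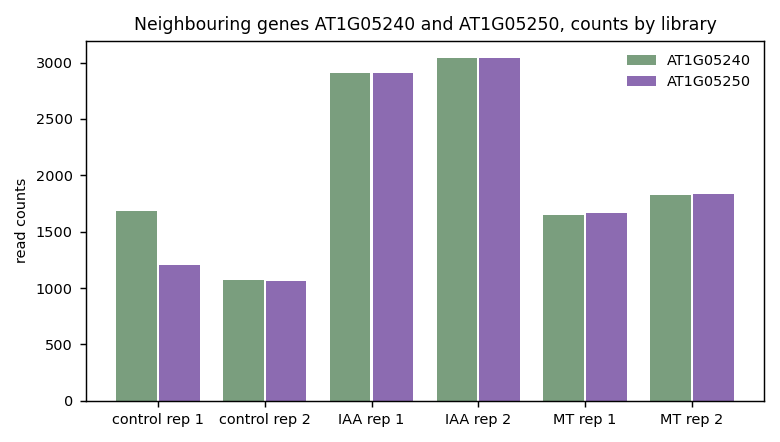
Deposited read counts of the neighbouring genes AT1G05240 (green) and AT1G05250 (purple), whose coding sequences are identical, in each of the 6 libraries. The bars are level in 5 libraries and differ in control replicate 1, where they stand at 1683 and 1208 counts.

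The first comparison asked how the family differed between IAA and solvent. Most peroxidases were somewhat higher with IAA, and 1 of the 48 passed the test. That gene was AT1G05250, at 33.8 and 28.4 CPM in the controls and 65.7 and 63.9 CPM with IAA, so the groups lay far apart. Its log2 fold change was 1.06 ± 0.10 (SE), a 2.08-fold rise, with an adjusted p of 0.0217. AT1G05240 had 47.0 and 28.7 CPM in the controls and 65.6 and 63.9 CPM with IAA, and did not pass, with 0.77 ± 0.20 and an adjusted p of 0.204. With the identical pair summed to 1 feature, an alternative chosen after seeing the data, the log2 fold change was 0.91 ± 0.15 and the adjusted p 0.0881. The call for AT1G05250 thus ended, which leaves 0 members called, and it also ended without either IAA library (adjusted p 0.0841 and 0.0905).

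The share of members called with IAA was 2.08%. Over all genes tested, 0.332% were called, 0.272% as higher and 0.0609% as lower. The direction of the family's differences was more one-sided than its calls. The log2 fold change was above 0 in 37 of the 48 members, against 50.1% of all genes. Its median was 0.29 over the members and 0.00 over all 21355 genes. The size of this lean rested on the controls: without control replicate 1 the members' median was 0.52 and 38 lay above 0, and without control replicate 2 it was 0.10 and 32 lay above 0. In 24 members both IAA libraries lay above both controls, which held for 23.6% of all genes. In 4 members (AT4G33420, AT4G37530, PA2 and AT5G64120) both lay below, against 24.8% of all genes. At an unadjusted p under 0.05, 19 members were higher and 0 lower, against 6.94% and 7.32% of all genes and 14.3% in either direction.

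Root hair and epidermis peroxidases made up the group that leaned most evenly one way with IAA. This group of 10, called root hair peroxidases here for short, was sorted from general knowledge. Among them the annotation names root hair as a site for RHS18 and RHS19 alone. All 10 had log2 fold changes above 0, from 0.19 to 0.77 with a median of 0.53, and none passed edgeR's test. With DESeq2, 7 of the 10 were called as higher (AT1G05240, AT1G30870, AT1G34510, AT3G49960, AT4G26010, AT5G17820 and RHS19). DESeq2 called 13 of the 48 members tested, against 1 with edgeR. Its share of all genes is not given here, so its counts are not read as a result about the family. The median was 0.73 without control replicate 1 and 0.36, with 9 above 0, without control replicate 2. AT4G26010 came nearest. It had 65.9 and 56.4 CPM in the controls and 94.2 and 96.9 CPM with IAA, with no overlap, and its log2 fold change was 0.64 ± 0.10 with an adjusted p of 0.0653. With robust empirical Bayes it passed edgeR's test (adjusted p 0.0314). RHS19 (AT5G67400) had 66.6 and 45.7 CPM in the controls and 94.6 and 85.5 CPM with IAA (0.68 ± 0.17, adjusted p 0.181). AT5G17820, the highest of the group, had 122 and 99.2 CPM against 156 and 149 CPM (0.46 ± 0.11, adjusted p 0.178). For 8 of the 10 both IAA libraries lay above both controls, against 23.6% of all genes. The exceptions were AT3G01190 and AT1G49570, in which control replicate 1 reached into the IAA range.

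The summed level of these 10 genes was 554 and 410 CPM in the controls, 700.4 and 679 CPM with IAA, and 493 and 505 CPM with MT. Root hair markers moved beside them. All 6 markers, among them the expansin genes EXPA7 and EXPA18 and the wall protein gene LRX1, had log2 fold changes above 0 with IAA, with a median of 0.33, and none passed. Their summed level was 216 and 167 CPM in the controls, 246 and 225 CPM with IAA, and 167 and 165 CPM with MT. The 5 root markers summed to 4478 and 3540 CPM in the controls, 4426 and 4855 CPM with IAA, and 3646 and 3501 CPM with MT. Most of that sum was PYK10, at 4071 and 3223 CPM in the controls, and with IAA 3 of the 5 root markers had log2 fold changes below 0, with a median of -0.10. The 5 leaf markers summed to 20761 and 21641 CPM in the controls and 16305 and 15809 CPM with IAA, although the 3 light-harvesting genes among them rose. RBCS1A and RCA made up most of this sum, at 12197 and 8138 CPM in control replicate 1. The median log2 fold change of the 5 with IAA was 0.70, with 3 above 0 and 2 below. The part of root, root hair or leaf amount in the peroxidase values was not tested.

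**Figure D3:**
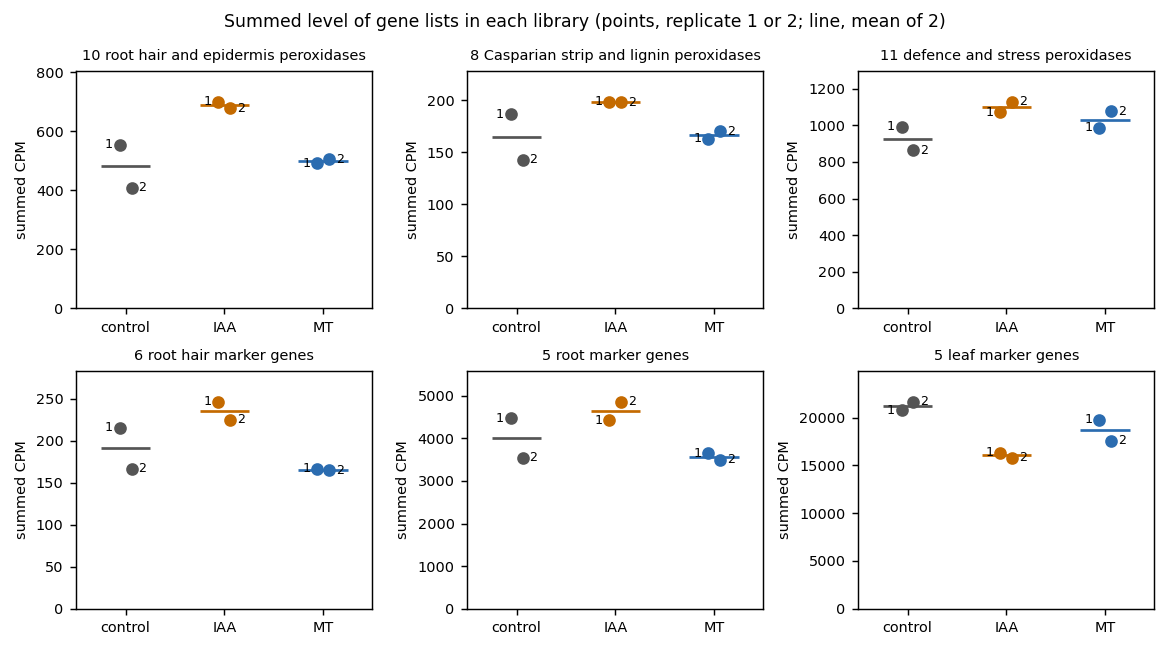
Summed CPM of 3 groups of peroxidase genes and of root hair, root and leaf marker genes in each library (points, numbered by replicate; line, mean of 2). The root hair peroxidases and the root hair markers are both highest in the 2 IAA libraries, and in each of these groups control replicate 1 lies above control replicate 2.

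Defence and stress peroxidases were mixed with IAA. Of the 11 tested, 7 had log2 fold changes above 0 and none passed edgeR's test, while DESeq2 called 2 as higher, Prx37 and RCI3. Prx37, a peroxidase tied in Arabidopsis to growth through wall cross-links, had the highest log2 fold change of the 11. It had 27.0 and 20.6 CPM in the controls and 42.8 and 49.96 CPM with IAA, with a log2 fold change of 0.96 ± 0.14 and an adjusted p of 0.0629. It passed edgeR's test with robust empirical Bayes (adjusted p 0.0294) and with no filter on low counts (adjusted p 0.0441). Both IAA libraries stood above both controls, and its neighbour AT4G08780, a much lower gene, lay the same way. AT4G08780 had 4.89 and 3.05 CPM in the controls against 7.67 and 6.92 CPM (0.88 ± 0.27, adjusted p 0.248). RCI3 (AT1G05260), first known as a cold-inducible gene and also a Casparian strip peroxidase, had 66.8 and 47.0 CPM against 80.7 and 89.4 CPM (0.58 ± 0.16, adjusted p 0.218).

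PRXCA and PRXCB, which serve the oxidative burst against bacteria and fungi, did not pass with IAA. PRXCB had 481 and 403 CPM in the controls and 486 and 542 CPM with IAA (0.22 ± 0.13). PRXCA spread widely within groups, at 31.6 and 62.7 CPM in the controls and 82.8 and 53.8 CPM with IAA, so the groups overlapped. AT5G64120 (PRX71), annotated with defence and the respiratory burst, had 131 and 114 CPM against 110 and 102 CPM (-0.21 ± 0.10, adjusted p 0.416).

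Casparian strip and lignin peroxidases leaned upward less evenly with IAA. Of the 8, 6 had log2 fold changes above 0, with a median of 0.27. This lean was absent without control replicate 2, with 4 above 0, 4 below and a median of -0.0008. Without control replicate 1 the median was 0.56. None of the 8 passed edgeR's test, while DESeq2 called AT4G36430 as higher (adjusted p 0.0216). AT4G36430 had the smallest p, at 14.0 and 11.3 CPM in the controls and 18.3 and 20.2 CPM with IAA (0.60 ± 0.15, adjusted p 0.189). AT4G11290, a Casparian strip peroxidase, had 33.8 and 24.7 CPM against 42.8 and 41.4 CPM (0.53 ± 0.15, adjusted p 0.228). AT5G66390 (PRX72), which acts in lignin formation, had 58.8 and 42.5 CPM against 61.8 and 60.2 CPM (0.27 ± 0.15). Endodermis markers had log2 fold changes on both sides of 0, from -0.70 to 0.33. The lowest was ESB1, listed at 0.970 CPM in IAA replicate 1 and between 17.9 and 27.4 CPM in the other 5 libraries.

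Among the remaining 19 members tested, 14 had log2 fold changes above 0 with IAA and 1, AT1G05250, passed edgeR's test. DESeq2 called 3 as higher, AT1G05250, AT3G32980 and AT2G38380. The abundant genes were AT3G32980, with 672 and 510.4 CPM in the controls and 814 and 862 CPM with IAA (0.50 ± 0.13, adjusted p 0.209), and AT2G38380, annotated with zinc and salt responses. AT2G38380 had 229.7 and 162 CPM against 288 and 319 CPM (0.63 ± 0.16, adjusted p 0.198). PRXR1 differed between the IAA libraries themselves, at 1191 and 1902 CPM, while the controls stood at 1350 and 1413 CPM.

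**Figure D4:**
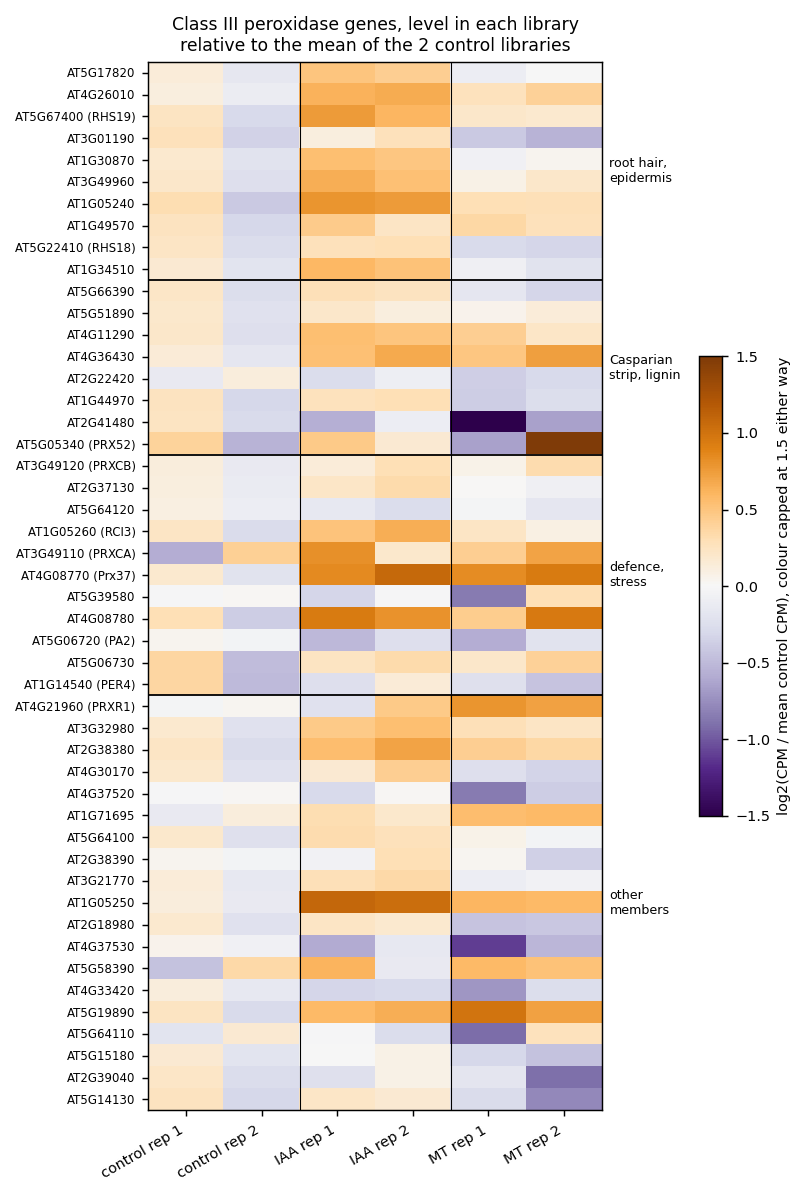
Level of the 48 tested peroxidase genes in each library as log2(CPM / mean control CPM), with genes ordered by role list and level and the colour capped at 1.5 either way. The root hair block is orange in both IAA columns for 10 of 10 genes, and PRXR1, Prx37, AT1G71695 and AT5G19890 are orange in both MT columns.

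The second comparison asked the same of MT. Single peroxidases were higher, several others were lower without passing edgeR's test, and the 48 members tested showed no common direction. Of the 48 tested, 4 rose (AT1G05250, AT1G71695, Prx37 and AT5G19890) and 0 fell. That is 8.33% of members, close to the 7.65% of all genes called with MT, of which 3.99% were higher and 3.65% lower. The log2 fold change was above 0 in 23 of the 48, against 50.2% of all genes, with a median of -0.02. This balance also depended on the controls, with 31 above 0 without control replicate 1 and 16 without control replicate 2. With DESeq2, 11 members were called, 7 higher and 4 lower, and its share of all genes is not given here. The higher ones were AT1G05250, AT1G71695, Prx37, PRXR1, AT4G26010, AT4G36430 and AT5G19890. The lower ones were AT2G18980, AT2G41480, AT4G37520 and AT4G37530.

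Prx37 had 42.7 and 45.7 CPM with MT, against 27.0 and 20.6 CPM in the controls. Its mean rose from 23.8 ± 4.53 to 44.2 ± 2.08 CPM (SD, n = 2), a log2 fold change of 0.89 ± 0.14 with an adjusted p of 0.0173. The level was close to that with IAA, and the MT to IAA difference was -0.07, with a 95% interval from -0.41 to 0.27. AT4G08780 had 5.40 and 7.71 CPM with MT and did not pass (0.72 ± 0.27, adjusted p 0.162). With 93.8% identity between the 2 coding sequences, reads could be split between them.

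AT5G19890 had 17.4 and 12.1 CPM in the controls, 21.9 and 23.1 CPM with IAA and 29.4 and 24.4 CPM with MT. The groups did not overlap, and the log2 fold change with MT was 0.87 ± 0.18, with an adjusted p of 0.0383. AT1G71695 had 78.3 and 93.8 CPM in the controls, 107 and 98.4 CPM with IAA, and 127 and 129 CPM with MT. It rose with MT by a log2 fold change of 0.57 ± 0.10, with an adjusted p of 0.0241. The order of groups was control, IAA, MT for both genes, and neither passed with IAA (adjusted p 0.236 and 0.338) or between MT and IAA (adjusted p 0.527 and 0.202).

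The identical pair stood between control and IAA. AT1G05250 had 47.1 and 46.5 CPM with MT (0.59 ± 0.10, adjusted p 0.0178), and AT1G05240 had 46.7 and 46.3 CPM (0.30 ± 0.20, adjusted p 0.411). Control replicate 1 of AT1G05240, at 47.0 CPM, was as high as the MT libraries. With the pair summed, the log2 fold change was 0.44 ± 0.15 and the adjusted p 0.133, so the call ended and 3 members remained called.

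These calls rested on few libraries. None of the 4 was called without MT replicate 1. Without control replicate 2, AT1G71695 alone of the 4 was called, and without MT replicate 2, AT1G05250 alone of the 4 was. AT5G19890 also lost its call with only the 4 libraries compared in the fit (adjusted p 0.0702) and without IAA replicate 1 or 2 (adjusted p 0.0738 and 0.0727). AT1G71695 lost it without control replicate 1 (adjusted p 0.0949). The log2 fold changes of the lost calls stayed above 0. Those of Prx37 were 0.94 and 0.85 without MT replicate 1 or 2 and 0.71 without control replicate 2, and those of AT1G71695 ranged from 0.45 to 0.59. Those of AT1G05250 were 0.59 and 0.47, and those of AT5G19890 ranged from 0.63 to 1.00.

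PRXR1 gave the largest difference in CPM of the 48 members with MT. It had 1350 and 1413 CPM in the controls and 2383 and 2279 CPM with MT, with no overlap, and a log2 fold change of 0.75 ± 0.20. The adjusted p was 0.0673, so it did not pass edgeR's test, while DESeq2 called it as higher (adjusted p 0.00092). The 2 IAA libraries, which are far apart for this gene, share in the estimate of its spread. With only the control and MT libraries in the fit the adjusted p was 0.0145.

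Other members lay lower with MT without passing edgeR's test, and DESeq2 called each of those given next as lower. AT4G37520 had 163 and 168 CPM in the controls and 91.7 and 128 CPM with MT (-0.60 ± 0.17, adjusted p 0.0850). Its neighbour AT4G37530, annotated with salt response, had 48.6 and 44.7 CPM against 21.6 and 32.5 CPM (-0.79 ± 0.21, adjusted p 0.0737). In both, MT replicate 1 was the lowest library. AT2G18980 had 50.5 and 38.3 CPM against 32.8 and 33.4 CPM (-0.42 ± 0.13, adjusted p 0.0989). AT2G41480 (PRX25), which acts in lignin formation, had 8.64 and 6.0 CPM against 2.09 and 4.67 CPM (-1.11 ± 0.39, adjusted p 0.139). At an unadjusted p under 0.05, 9 members were higher and 8 lower with MT, against 12.5% and 12.7% of all genes and 25.2% in either direction. Both MT libraries lay above both controls in 14 members and below in 11, against 27.8% and 27.7% of all genes.

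By role, the 10 root hair peroxidases divided evenly with MT, with 5 log2 fold changes above 0 and 5 below and a median of 0.06. Without control replicate 1, 8 lay above 0, and without control replicate 2, 2 did. AT4G26010, at 73.2 and 80.8 CPM with MT, was the highest against its controls (0.33 ± 0.10, adjusted p 0.0891). DESeq2 called it as higher (adjusted p 0.0340). AT3G01190 was the lowest, at 46.7 and 42.1 CPM against 74.6 and 48.6 CPM (-0.47 ± 0.19, adjusted p 0.182). Among the 8 Casparian strip and lignin genes 4 lay above 0 and 4 below. The smallest adjusted p was 0.0581 for AT4G36430, with 17.7 and 21.0 CPM (0.61 ± 0.15). DESeq2 called AT4G36430 as higher (adjusted p 0.0063) and AT2G41480 as lower (adjusted p 0.0364). AT4G36430 also passed edgeR's test with robust empirical Bayes (adjusted p 0.0391). Of the 11 defence and stress genes 6 lay above 0, and Prx37 alone passed edgeR's test. Of the 19 others 8 lay above 0, and 3 passed.

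Most endodermis and root markers had log2 fold changes below 0 beside these values, and few passed. All 6 endodermis markers had log2 fold changes below 0 with MT. CASP5, a scaffold protein of the Casparian strip, alone of them fell, by 1.27 on the log2 scale (adjusted p 0.0182). Among the 5 root markers 4 lay below 0 and WOX5 above, at 0.43, and the aquaporin genes TIP2;3 and TIP2;2 fell, by 0.95 and 0.62 on the log2 scale (adjusted p 0.00806 and 0.0437). Of the 5 leaf markers, 3 light-harvesting genes rose, while the 2 genes of carbon fixation, RBCS1A and RCA, had -0.19 and -0.38 and did not pass. The summed leaf markers, mostly RBCS1A and RCA, had 20761 and 21641 CPM in the controls and 19776 and 17595 CPM with MT. The median log2 fold change of the 5 was 1.39. The part of these shifts in the peroxidase values was not tested.

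**Figure D5:**
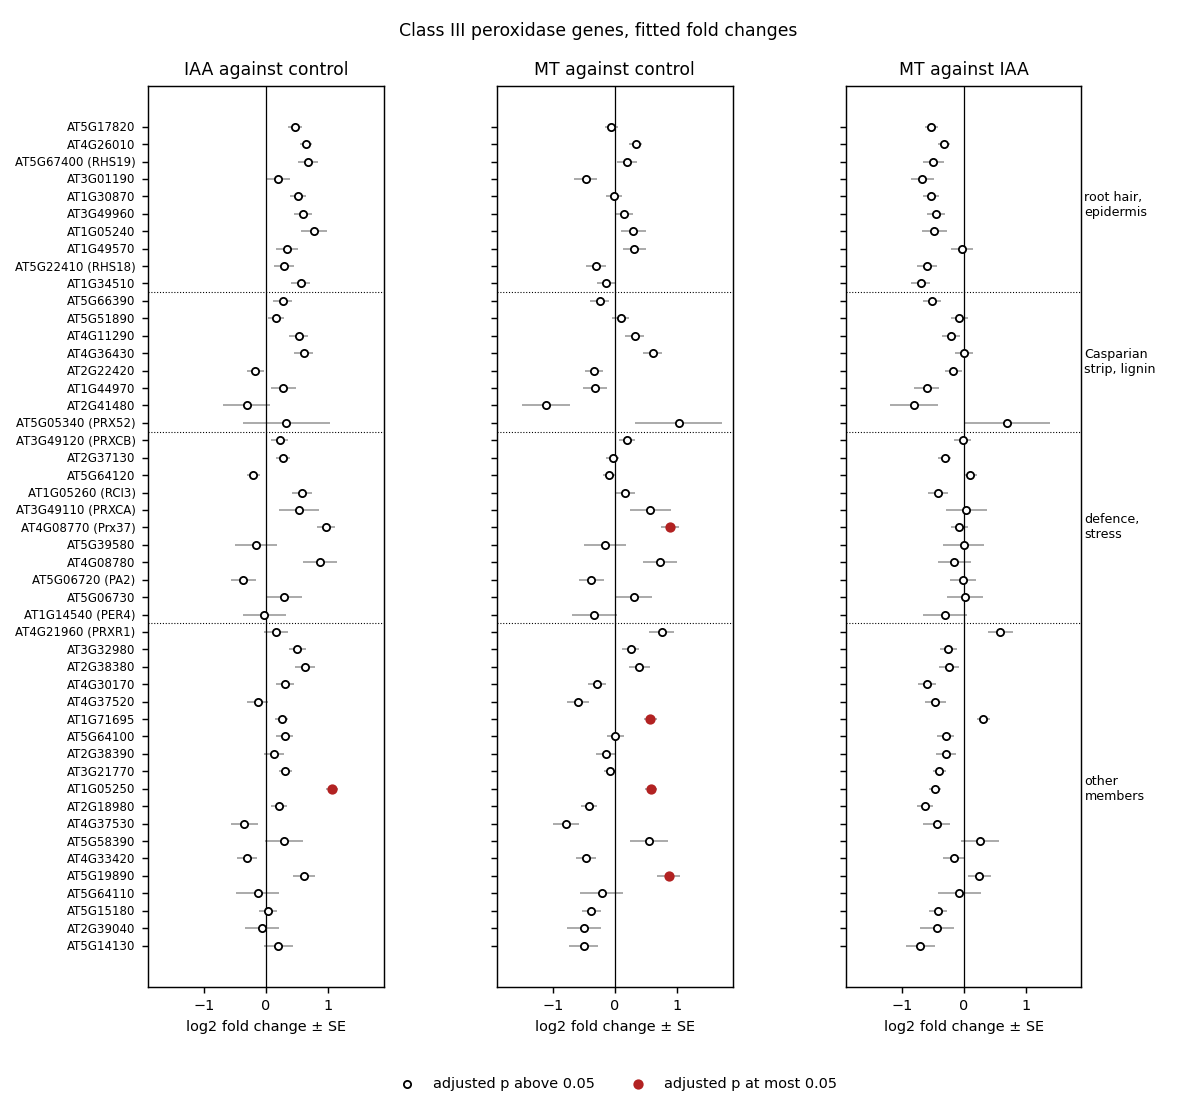
Fitted log2 fold changes ± SE of the 48 tested peroxidase genes in the 3 comparisons, with genes ordered by role list and level; filled red points have an adjusted p of at most 0.05. With IAA 37 points lie above 0 and 1 is filled, with MT 23 lie above 0 and 4 are filled, and between MT and IAA 39 lie below 0 and none is filled.

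The third comparison set MT directly against IAA, at their unequal doses. Most peroxidases lay lower with MT than with IAA, and none of the 48 passed edgeR's test, against 0.173% of all genes (0.0890% higher and 0.0843% lower). With DESeq2 in its place, 11 members were called, 1 higher and 10 lower, and its share of all genes is not given here. The higher one was PRXR1, and outside the root hair group the lower ones were AT1G05250, AT2G18980, AT3G21770, AT4G30170 and AT5G66390. Log2 fold changes lay below 0 in 39 members and above 0 in 9, against 49.2% of all genes above 0, and the median was -0.30. At an unadjusted p under 0.05, 19 members were lower and 2 higher, against 8.28% and 9.08% of all genes and 17.4% in either direction. Both MT libraries lay below both IAA libraries in 26 members, against 26.1% of all genes, and above in 3, against 24.3%. Those 3 were PRXR1, AT1G71695 and AT5G19890. The comparisons share libraries, so the lean against IAA and the lean of IAA against the controls are not independent of each other.

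All 10 root hair peroxidases lay lower with MT than with IAA, with a median log2 fold change of -0.50. AT5G17820 had 103 and 109.8 CPM with MT against 156 and 149 CPM with IAA (-0.52 ± 0.11, adjusted p 0.113). AT1G34510 had 12.4 and 11.3 CPM against 19.6 and 18.6 CPM (-0.70 ± 0.15, adjusted p 0.117). RHS18 (AT5G22410) had 14.97 and 14.6 CPM against 22.1 and 22.5 CPM (-0.59 ± 0.16, adjusted p 0.162). In 9 of the 10 both MT libraries lay below both IAA libraries, against 26.1% of all genes, AT1G49570 being the exception at -0.03 ± 0.18. With DESeq2, 5 of the 10 were called as lower (AT1G30870, AT1G34510, AT3G01190, AT5G17820 and RHS18). The 6 root hair markers also lay lower, with a median of -0.51, and none passed edgeR's test. Of the endodermis markers 5 of 6 lay lower (median -0.67), and of the root markers 4 of 5 (median -0.41), with none passed. The 5 leaf markers all lay higher (median 0.69), and LHCB2.3 passed (adjusted p 0.0498). The part of these shifts in the peroxidase values was not tested.

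Outside the root hair group, AT1G05250 had the smallest adjusted p between MT and IAA, 0.108, at -0.47 ± 0.10. AT4G30170, one of the 8 members with the highest CPM, had 176 and 164 CPM with MT against 233 and 278 CPM with IAA (-0.59 ± 0.15, adjusted p 0.144). PRXR1 lay the other way, at 0.59 ± 0.20 (adjusted p 0.209). Of the 8 Casparian strip and lignin genes 6 lay lower and 2 higher, with a median of -0.18, and none passed edgeR's test. Both MT libraries lay below both IAA libraries in 5 of the 8, against 26.1% of all genes. AT1G44970 of this list had -0.60 ± 0.20 (adjusted p 0.207). Defence and stress genes differed little on balance, with a median of -0.02 and 2 of 11 lower without overlap, against 26.1% of all genes.

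Spread between the libraries of a group was uneven across the family and largest in the control. The higher library of a pair exceeded the lower by a median factor of 1.32 in the control, 1.09 with IAA and 1.10 with MT. Control replicate 1 was above control replicate 2 in 40 of the 48 members, or 83.3%, against 47.8% of all genes. It was above in 10 of 10 root hair peroxidases, with a median ratio of 1.39. The same held for 6 of 6 root hair, 6 of 6 endodermis and 5 of 5 root markers, and for 0 of 5 leaf markers. Among the members the IAA and MT libraries had no such lean, with 21 and 24 of the 48 higher in replicate 1. For the markers with IAA, replicate 1 was higher in 4 of 6 root hair, 3 of 6 endodermis, 0 of 5 root and 4 of 5 leaf genes. With MT it was higher in 4 of 6, 2 of 6, 3 of 5 and 4 of 5.

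Some members had a spread of their own. PRX52 (AT5G05340), a lignin peroxidase, had 1.64 and 8.82 CPM in the MT libraries, a ratio of 5.38, and 1.77 to 3.54 CPM in the other 4 libraries. In MT replicate 1 against replicate 2, AT5G64110 had 10.7 against 24.2 CPM and AT5G39580, annotated with defence against fungi, 8.15 against 18.2 CPM. PRXCA had a ratio of 1.98 between the controls. Its share of the counts of PRXCA and PRXCB together was 6.17% in control replicate 1 and from 9.03% to 14.6% in the other 5 libraries. None of these 4 genes passed in any comparison.

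Outside the 51 members, 22 further class III peroxidases were listed for comparison. Of these, 21 were in the table and 14 were tested. With IAA 0 passed, and with MT 2 fell and 0 rose. Log2 fold changes lay above 0 in 8 of the 14 with IAA (median 0.21) and in 7 with MT (median -0.09). Between MT and IAA 5 lay above 0 and 9 below (median -0.32). PER64 (AT5G42180), the peroxidase of the Casparian strip that works with the CASP scaffold, had 37.6 and 29.5 CPM in the controls, 33.6 and 31.3 CPM with IAA and 21.8 and 19.7 CPM with MT. It fell by 0.69 on the log2 scale with MT (adjusted p 0.0284). AT2G35380 had 25.4 and 17.1 CPM in the controls and 12.3 and 11.8 CPM with MT and fell by 0.82 (adjusted p 0.0470). The Casparian strip members of the family did not pass edgeR's test with MT, and whether PER64 differs from them was not tested.

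Enzymes that supply or compete for the same chemistry were mostly not called. Of 8 RBOH oxidases tested, 1 rose in each comparison with the control. RBOHD, the oxidase of the defence burst, had 98.1 and 99.6 CPM in the controls, 175 and 172 CPM with IAA, and 265 and 250.4 CPM with MT. The groups did not overlap, and RBOHD rose by 0.81 with IAA (adjusted p 0.0217) and by 1.38 with MT (adjusted p 0.00165) on the log2 scale. RBOHC, named RHD2 in the annotation and known from root hair growth, had 0.37 ± 0.17 with IAA and -0.12 ± 0.17 with MT and did not pass. Of 16 laccases tested, which also oxidise monolignols, 0 passed with IAA and 1, LAC7 (AT3G09220), fell with MT by 0.84 on the log2 scale (adjusted p 0.00791). UPB1 (AT2G47270), a transcription factor that represses peroxidase genes in the root tip, had 7.83 and 4.79 CPM in the controls, 8.10 and 7.74 CPM with IAA, and 19.3 and 8.98 CPM with MT. Its MT libraries differed by more than the groups' means did, and it did not pass (1.16 ± 0.38, adjusted p 0.115).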

How the data were processed

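Transcript levels were measured by RNA sequencing in 6 libraries of wild-type seedlings, 2 each of solvent control, 1 nM IAA and 10 nM MT at 72 h, grouped by the sample labels. A single deposited table holds unnormalised read counts for each gene and library. Per the submitters' processing notes, reads went through HTSeq 0.6.1, TopHat2 2.0.12, DESeq 1.18.0 and Bowtie2 2.2.3, in roles the notes do not state. Build, annotation, strand setting and the treatment of reads with several matches were not given in the sources used here. Coordinates and sequences are therefore left out, and 7 members that overlap a gene on the other strand (AT1G30870, AT4G08780, AT4G26010, AT4G33420, AT5G14130, AT5G51890 and AT5G67400) can share reads with it.

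Of the 24267 genes, 23606 matched a locus tag of RefSeq's TAIR10.1 annotation, which was used for names, coding lengths, neighbours, notes on the site of expression and the identity of coding sequences. Members with no symbol there are given by locus. Library totals were 35953236 to 46076624 counts.

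The test was edgeR's quasi-likelihood F-test (version 4.0.16, under R 4.3.3), checked on simulated data. It was fitted to 21355 genes kept by filterByExpr, with TMM factors, the 6 libraries together and group alone as the model. Residual degrees of freedom were 3 and the common biological coefficient of variation 16.1%. Benjamini-Hochberg adjustment ran over all genes tested, with 0.05 as threshold, and an adjusted p with no tool named comes from edgeR. CPM use TMM-scaled library sizes, values after ± are SE of a log2 fold change unless marked SD, and 95% intervals use the t distribution with 6.83 degrees of freedom. Replicates differed beyond counting noise (chi-square over its degrees of freedom 25.6 to 32.8 over genes with at least 20 counts), and every library counted as 1 sample. The alternatives were DESeq2 1.42.0, other scaling, filter and empirical Bayes settings, fewer libraries and a replicate block.

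The members, the role lists, the marker lists and the tests were chosen with earlier results of these data known, and roles were sorted from general knowledge of the family. Named by rule were members called, the 8 with the highest CPM, the 3 of each role list with the smallest p in a comparison, and neighbours of these. Not members, RBOHC, RBOHD, UPB1, PER64 and up to 3 called genes of a list were named. Named after their values were seen were AT1G49570, AT3G49960, AT4G33420, AT5G39580, PRX52, PER4, PER36, AT1G14550, AT5G58400 and the marker genes. AT5G14130 and AT5G51890 were named only for their overlap with another gene.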

Additional observations from a re-analysis of the deposited data

How the results depend on the processing

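Of the 51 members, 50 had a mean of at least 0.25 CPM and 48 of at least 1 CPM. With IAA against control, 1 member was called with relative log expression factors, with the replicate block and with only the 4 libraries compared, 2 with no filter on low counts, 3 with robust empirical Bayes and 13, all higher, with DESeq2. With the identical pair summed 0 were called, and leaving out each library in turn gave 0 to 2. The 2 came without control replicate 1 and the 0 without either IAA library. With MT against control, 4 were called, 11 with DESeq2 (7 higher, 4 lower), 5 with robust empirical Bayes, 6 with the replicate block (AT4G37520 and AT4G37530 added as lower), 3 with the pair summed and 0 to 4 when a library was left out. The 0 came without MT replicate 1, and of the 4 without MT replicate 2, 3 were lower. Between MT and IAA, DESeq2 called 11 and each of the other alternatives 0. What sets DESeq2 apart here was not tested. Shares of all genes called are given here for edgeR alone, so the counts from DESeq2 have no such background. The replicate numbers did not pair the libraries, since deviations of same-numbered libraries correlated at r from 0.0074 to 0.079, and the block ended no call. Another scaling moved the median of all genes by at most 0.0036 on the log2 scale.

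Of 111 log2 fold changes (37 named members in 3 comparisons), 28 changed sign without some library and 0 in any other alternative. None of the 28 was called in the main fit. With IAA against control their ranges over the libraries left out were AT2G38390 -0.048 to 0.31, AT3G01190 -0.079 to 0.54, PRXR1 -0.20 to 0.47, AT4G37520 -0.29 to 0.024, AT5G06730 -0.074 to 0.78 and AT5G64110 -0.31 to 0.063. With MT against control they were AT1G05240 -0.014 to 0.70, RCI3 -0.068 to 0.44, AT1G30870 -0.19 to 0.19, AT1G34510 -0.31 to 0.056, AT2G37130 -0.14 to 0.087, AT2G38390 -0.35 to 0.042 and AT3G21770 -0.21 to 0.064, and AT5G06730 -0.058 to 0.80, AT5G17820 -0.19 to 0.1, AT5G64100 -0.18 to 0.23, AT5G64110 -0.91 to 0.27, AT5G64120 -0.19 to 0.0085, AT5G66390 -0.46 to 0.0060 and RHS19 -0.051 to 0.49. Between MT and IAA they were PRXCA -0.24 to 0.38, PRXCB -0.15 to 0.10, Prx37 -0.18 to 0.044, AT4G08780 -0.43 to 0.077, AT4G36430 -0.12 to 0.12, PA2 -0.21 to 0.16, AT5G06730 -0.089 to 0.11 and AT5G64110 -0.78 to 0.39. With a group reduced to 1 library, that library is assumed to vary like the others. Promoter motifs and protein identity were not run, since the sequence tables they need were not used here.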
